A study of Saccharomyces cerevisiae with 12 samples.

Results

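The 8 stress genes described here are HSP12, HSP26, HSP30, DDR2, YRO2, MRH1, SPI1 and RTC3, out of 6159 gene IDs measured. They were chosen by name as HSP12 and other stress-induced proteins, most of them linked to membranes, with attention to how far replicates of 1 genotype lie apart. The choice was made with the difference between Dbp1 and Ded1 cells already known, so that difference is given below as a description only. The other comparisons share libraries with that one, so they are not independent of the choice. The name "membrane-linked" is loose for HSP26, RTC3 and DDR2, whose products are not known mainly as membrane proteins.

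The data are ribosome footprints, which count ribosomes on an mRNA, and poly(A) mRNA from budding yeast of the SK1 strain in exponential mitotic growth. All cultures grew in YEPD, a rich glucose medium, at 30 °C until their optical density reached 0.6, and then received 100 µM cycloheximide, which stalls ribosomes, for 1 minute. The 3 genotypes differ in which DEAD-box RNA helicase the DED1 regulatory regions drive: DED1 itself (called Ded1), its paralog DBP1 (Dbp1), or DBP1 in 4 copies (2xDbp1), the last made to match helicase levels. Each genotype has 2 mRNA and 2 footprint libraries, 12 in all, and the labels do not say whether replicates were separate cultures or clones, so p-values measure only the spread between these libraries. The labels used here do not give the ploidy or the state of the native helicase genes.

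In the libraries, DED1 mRNA stood at 63.0 and 61.5 RPKM (reads per kilobase of gene, scaled to library depth) in Ded1 cells and at 1.81 to 2.81 RPKM in the other 4 mRNA libraries. DBP1 mRNA stood at 5.12 and 4.26 RPKM in Ded1, 100 and 105 in Dbp1, and 156 and 153 in 2xDbp1, so both helicases followed the labels. Depth, inferred from the values, was 6.0 to 8.5 M reads in an mRNA library and 8.7 to 13.1 M in a footprint library. Summed mRNA of 12 meiotic markers was 44.2 to 62.1 RPKM in Ded1, 45.5 to 69.3 in Dbp1 and 53.9 to 73.8 in 2xDbp1, and that of 8 mating or haploid markers 19.4 to 26.4, 18.8 to 25.5 and 20.4 to 27.4. These ranges overlapped between genotypes, and no marker was at 0 in every mRNA library. Each library pools a whole culture, so more RNA per cell and more cells holding the RNA cannot be told apart.

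When yeast meets heat, acid, starvation or other stress, the transcription factors Msn2 and Msn4 enter the nucleus and bind stress response elements in the promoters of many genes, HSP12, HSP26 and DDR2 among them. The heat shock factor Hsf1 drives chaperone genes, and Haa1 answers weak acids, with YRO2 and SPI1 among its known targets. Several of the products act at the cell surface, where they affect membrane stability, the proton pump or the wall, and in well-fed, growing cells most of these genes are kept low.

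HSP12 (YFL014W) encodes a hydrophilic protein of 109 residues that folds on contact with lipid and is thought to keep membranes stable under stress. Its mRNA was 17.5 and 64.5 RPKM in replicates 1 and 2 of Ded1, 674 and 344 in Dbp1, and 105 and 84.9 in 2xDbp1. Both Dbp1 libraries were above all others, both 2xDbp1 libraries were above both Ded1 libraries, and the genotypes did not overlap. These levels correspond to 36 and 148 reads in Ded1, 1092 and 729 in Dbp1, and 185 and 160 in 2xDbp1. Footprints were 19.2 and 65.3 RPKM in Ded1, 538 and 256 in Dbp1, and 71.8 and 70.2 in 2xDbp1. The footprints kept the order of the mRNA, down to the low first replicate of Ded1 and the high first replicate of Dbp1. The upper Ded1 library came close to 2xDbp1: 65.3 against 70.2 RPKM in footprints. The group mean of mRNA (± SD, n = 2) was 41.0 ± 33.2 RPKM for Ded1, 509 ± 233 RPKM for Dbp1 and 94.7 ± 13.8 RPKM for 2xDbp1.

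**Figure D1:**
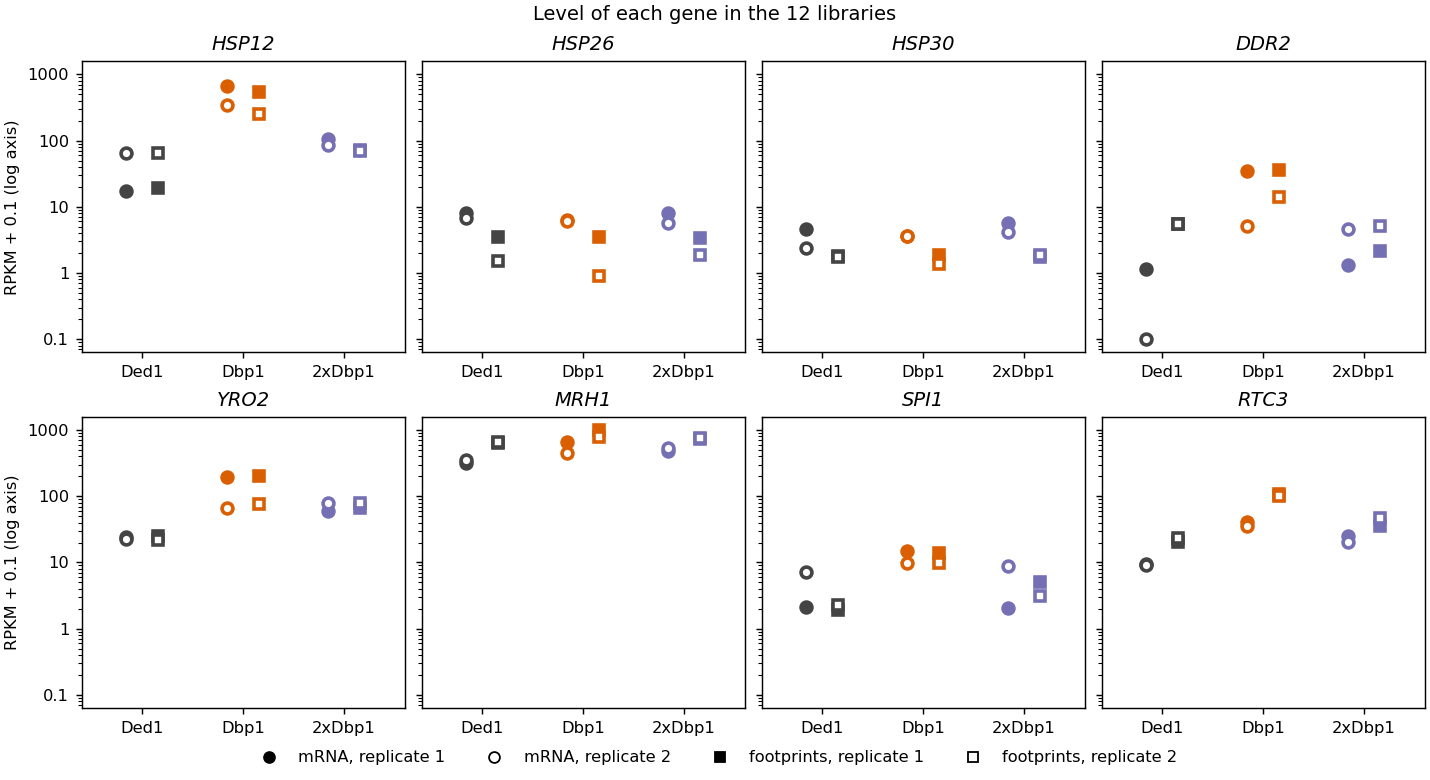
Level of each of the 8 genes (RPKM plus 0.1, shared log axis) in the 12 libraries, by genotype; circles are mRNA, squares are footprints, filled symbols replicate 1 and open symbols replicate 2. HSP12 runs from 17.5 RPKM in the first Ded1 mRNA library to 674 in the first Dbp1 library, while HSP26 and HSP30 stay at or under 8.08 RPKM in all 12 libraries.

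YRO2, MRH1 and HSP30 form a family of related plasma membrane proteins that span the membrane several times. YRO2 (YBR054W), a target of Haa1, had mRNA of 24.3 and 22.2 RPKM in Ded1, 198 and 66.4 in Dbp1, and 59.4 and 78.2 in 2xDbp1. Its Ded1 libraries were the lowest and close to each other, whereas the second Dbp1 library fell between the 2xDbp1 libraries, so Dbp1 and 2xDbp1 overlapped. Footprints of YRO2 were 25.0 and 21.8 RPKM in Ded1, 199 and 75.6 in Dbp1, and 65.5 and 80.3 in 2xDbp1. The same overlap was present there, with 1 Dbp1 library well above the rest.

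MRH1 (YDR033W), the paralog of YRO2, was the most abundant of the 8 genes per length in every library but the first Dbp1 mRNA library, where HSP12 was at 674 RPKM. Its mRNA was 319 and 352 RPKM in Ded1, 664 and 449 in Dbp1, and 490 and 539 in 2xDbp1, with Ded1 below the other genotypes and 2xDbp1 inside the span of Dbp1. Footprints were 632 and 652 RPKM in Ded1, 1002 and 791 in Dbp1, and 739 and 757 in 2xDbp1. Here the 3 genotypes did not overlap, and their order was Ded1, 2xDbp1, Dbp1. HSP30 (YCR021C), which restrains the proton pump Pma1 under stress, was near the bottom of the range. Its mRNA was 4.47 and 2.26 RPKM in Ded1, 3.55 and 3.53 in Dbp1, and 5.69 and 4.12 in 2xDbp1, and its footprints were 1.28 to 1.77 RPKM in all 6 libraries. HSP30 did not pass the minimum mean of 5 RPKM in either library type and was not tested.

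RTC3 (YHR087W, also HGI1) encodes a small protein of 111 residues that resembles a part of the SBDS family of ribosome maturation factors and has been linked to RNA metabolism. Its mRNA was 9.51 and 8.95 RPKM in Ded1, 41.1 and 35.1 in Dbp1, and 25.4 and 20.3 in 2xDbp1. Footprints were 20.0 and 23.2 RPKM in Ded1, 107 and 99.7 in Dbp1, and 35.1 and 47.5 in 2xDbp1. In both library types the genotypes were fully separated, in the order Ded1, 2xDbp1, Dbp1. The lowest mRNA value rests on 21 reads and the highest on 68.

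SPI1 and DDR2 were low and rest on few reads. SPI1 (YER150W), a wall protein held by a lipid anchor and similar to Sed1, had mRNA of 2.03 and 6.99 RPKM in Ded1, 14.6 and 9.55 in Dbp1, and 1.97 and 8.89 in 2xDbp1. The Dbp1 libraries were the highest, and Ded1 and 2xDbp1 overlapped, each with 1 library at 6 reads or fewer. Footprints of SPI1 were 1.78 and 2.168 RPKM in Ded1, 13.8 and 9.58 in Dbp1, and 4.92 and 3.06 in 2xDbp1, and these did not overlap. DDR2 (YOL052C-A), a stress protein of 61 residues whose molecular role is not settled, had 1 and 0 mRNA reads in Ded1, 26 and 5 in Dbp1, and 1 and 4 in 2xDbp1. Its footprints were 5.47 and 5.45 RPKM in Ded1, 35.9 and 14.0 in Dbp1, and 2.06 and 5.01 in 2xDbp1, from 3 to 44 reads. Both Dbp1 libraries were above the rest in footprints, but in mRNA only the first stood out, as the second held 5 reads against 4 in 2xDbp1. No mRNA fold is given against Ded1, where both libraries were under the floor of 3 reads per library.

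HSP26 (YBR072W), a small heat shock chaperone that binds unfolding proteins, was low and did not follow the others. Its mRNA was 7.85 and 6.64 RPKM in Ded1, 6.27 and 6.10 in Dbp1, and 8.08 and 5.63 in 2xDbp1. The Dbp1 libraries were just below those of Ded1, and 2xDbp1 spanned both. Footprints were 0.79 to 3.34 RPKM in the 6 libraries, below the minimum for a test.

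Between Dbp1 and Ded1, the contrast known when the genes were chosen, the log2 difference of RPKM plus 1 in mRNA was 3.79 for HSP12, 2.26 for YRO2, 1.93 for RTC3, 1.38 for SPI1 and 0.70 for MRH1. HSP26 was at -0.19. In footprints the differences were 3.35 for HSP12, 2.35 for YRO2, 2.21 for RTC3, 2.08 for SPI1, 1.86 for DDR2 and 0.47 for MRH1. Of the 7 genes with enough mRNA, limma's test over all genes called 2, HSP12 and RTC3, where 1.52% of all genes tested were called. Of the 6 with enough footprints it called 4, HSP12, YRO2, SPI1 and RTC3, against 3.31% of all genes. Without the first Ded1 library no gene was called in mRNA and 1, RTC3, in footprints, and without the second Dbp1 library 5 and 6 were. The count in mRNA was 1 without either 2xDbp1 library, and that in footprints was 2 without either of these or without the first Dbp1 library. SPI1 and DDR2 passed the minimum level only through the Dbp1 libraries: without these, their mean mRNA was 4.97 and 1.70 RPKM. In 6 of the 8 genes both Dbp1 libraries were above both Ded1 libraries, in mRNA and in footprints, which held for 30.6% and 25.1% of all genes. Nothing is read from these counts, because the genes were chosen with this contrast in view.

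**Figure D2:**
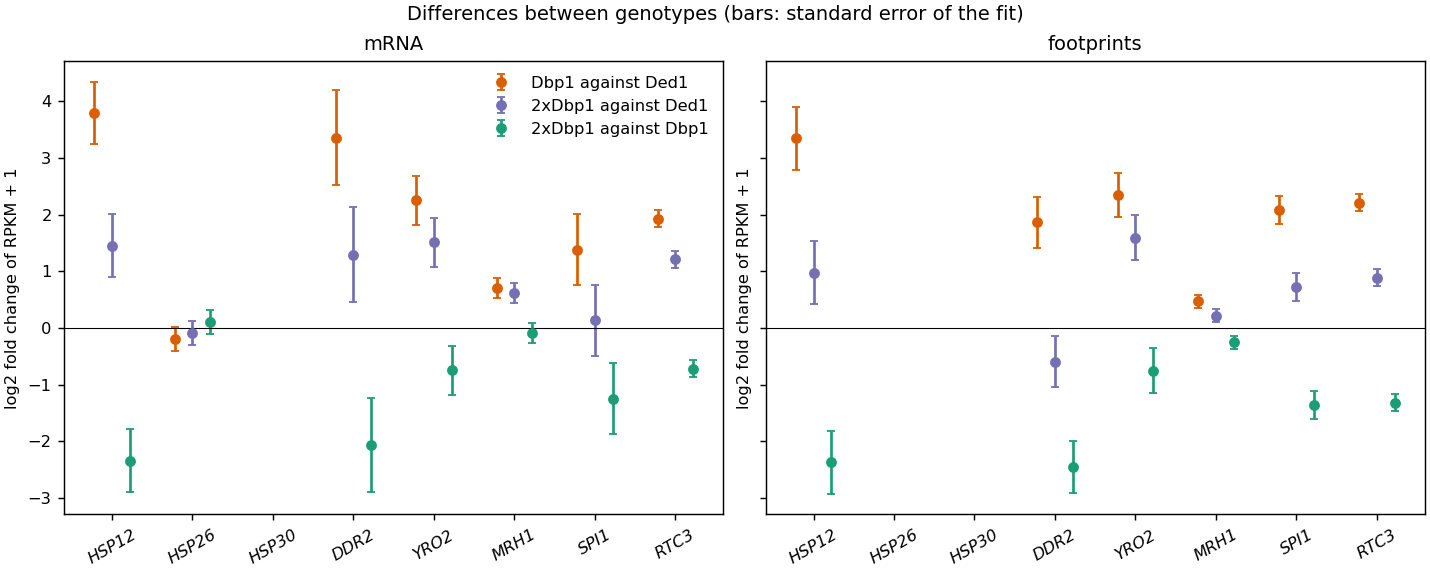
Log2 fold change of RPKM plus 1 in mRNA (left) and footprints (right) for the genes averaging 5 RPKM or more; points are estimates of the fit and bars their standard errors, for Dbp1 against Ded1, 2xDbp1 against Ded1 and 2xDbp1 against Dbp1. HSP12 has both large differences (3.79 in mRNA, Dbp1 against Ded1) and long bars, while RTC3 has smaller differences (1.93) with short bars. The mRNA points of DDR2 against Ded1 rest on 1 and 0 Ded1 reads and depend on the value added before the log.

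With more DBP1 copies, in 2xDbp1 against Ded1, the differences in mRNA were smaller than those just given. RTC3 was higher by 1.21 on the log2 scale (SE 0.15, 95% interval 0.87 to 1.55), with a Benjamini-Hochberg adjusted p of 0.051 in limma's test, just short of the threshold of 0.05. Over the 13 alternative fits its adjusted p ran from 0.0189 to 0.372, and it was under the threshold in 6. YRO2 was at 1.51 (interval 0.50 to 2.53, adjusted p 0.252), HSP12 at 1.45 (0.15 to 2.75, 0.307) and MRH1 at 0.62 (0.20 to 1.03, 0.252). SPI1 was at 0.14 and HSP26 at -0.08, DDR2 has no fold for the reason given, and HSP30 was not tested. No gene of the 7 was called, where 0.077% of all genes were. At an unadjusted p under 0.05 there were 4 of the 7, and 785 of all 5198 genes. The 2xDbp1 libraries were above both Ded1 libraries for 5 of the 8 genes, HSP12, DDR2, YRO2, MRH1 and RTC3, against 30.9% of all genes. For DDR2 this rests on 1 and 4 reads in 2xDbp1 against 1 and 0 in Ded1, too few to part them.

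In footprints, the same comparison gave 1.60 for YRO2 (interval 0.65 to 2.54, adjusted p 0.324 in limma's test), 0.89 for RTC3 (0.53 to 1.25, 0.188) and 0.98 for HSP12 (-0.34 to 2.30, 0.595). SPI1 was at 0.72, MRH1 at 0.22 and DDR2 at -0.59. None of the 6 was called, where 0.0621% of all genes were, and HSP26 and HSP30 were not tested. At an unadjusted p under 0.05 there were 3 of the 6, and 449 of all 4830 genes. Both 2xDbp1 libraries were above both Ded1 libraries for 5 genes, HSP12, YRO2, MRH1, SPI1 and RTC3 (25.0% of all genes). They were below them for DDR2, from 3 and 8 reads against 6 and 9. With either Dbp1 library left out of the fit, which moves only the shared spread here, YRO2 and RTC3 passed in mRNA and YRO2 in footprints.

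Against Dbp1, the 2xDbp1 libraries were lower for most of the genes. HSP12 was lower by 2.34 on the log2 scale in mRNA (interval -3.64 to -1.04, adjusted p 0.392 in limma's test) and by 2.37 in footprints (-3.69 to -1.05, 0.384). RTC3 was at -0.72 in mRNA (adjusted p 0.307) and at -1.32 in footprints (-1.68 to -0.96, 0.113). SPI1 was at -1.25 and -1.35, YRO2 at -0.75 and -0.75, and MRH1 at -0.09 and -0.25. DDR2 was at -2.06 and -2.46, from at most 8 reads in a 2xDbp1 library. HSP26 mRNA was at 0.11, and HSP30 mRNA, not tested, was higher in both 2xDbp1 libraries than in both of Dbp1. No gene was called in either library type, where 0.0192% and 0% of all genes were called. The values of DDR2 and SPI1 are a description, because these genes passed the minimum level only through the Dbp1 libraries. Of the others, HSP12 and RTC3 had an unadjusted p under 0.05 in both library types, as 404 of 5198 genes did in mRNA and 438 of 4830 in footprints. All libraries of 2xDbp1 were below those of Dbp1 for 4 genes in mRNA (HSP12, DDR2, SPI1 and RTC3) and 5 in footprints (these and MRH1), against 21.3% and 18.2% of all genes. In mRNA, the nearest libraries of the 2 genotypes held 4 and 5 reads for DDR2, and 24 and 29 for SPI1. The 3 comparisons share libraries pairwise, so their values are not independent of each other. Both 2xDbp1 comparisons reuse libraries of the contrast known when the genes were chosen. Their values, p-values and counts are therefore a description too, for HSP12 and RTC3 as for the rest.

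For several of these genes, replicates of 1 genotype lay farther apart than for most genes. HSP12 mRNA was 3.69-fold higher in the second than in the first Ded1 library, a log2 difference of RPKM plus 1 of 1.82 where counting error alone gives an SE of 0.27. Only 4 of the 5198 genes with enough mRNA differed more between these libraries. In footprints the difference was 3.41-fold in the same direction, rank 7 of 4830 genes. In Dbp1 the first replicate was the higher one, by 1.96-fold in mRNA and 2.10-fold in footprints, and in 2xDbp1 the replicates were within 1.23-fold and 1.02-fold. The mRNA difference in 2xDbp1, 0.30 on the log2 scale, was still larger than that of 88.3% of genes, and the footprint difference was larger than that of 17.1%. So the spread of HSP12 was wide in Ded1 and Dbp1 and smaller in 2xDbp1, and in Ded1 and Dbp1 mRNA and footprints of the same number moved together.

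YRO2 differed widely between the Dbp1 replicates, 2.99-fold in mRNA and 2.64-fold in footprints, ranks 20 and 16. Its Ded1 replicates were within 1.10-fold and 1.15-fold, and those of 2xDbp1 within 1.32-fold and 1.22-fold. MRH1 in Dbp1 differed by 1.48-fold in mRNA and 1.27-fold in footprints, with the first replicate higher as for YRO2. In Ded1 and Dbp1 mRNA, RTC3 was the steadiest of the genes with a large genotype difference, within 1.06-fold and 1.17-fold between replicates. In 2xDbp1 mRNA it differed by 1.26-fold, and HSP12 by 1.23-fold. RTC3 footprints in 2xDbp1 differed by 1.35-fold, a larger difference than for 96.0% of genes. SPI1 differed 3.44-fold in Ded1 mRNA and 4.51-fold in 2xDbp1 mRNA, from 6 against 23 and 5 against 24 reads, but not in step with its footprints, which differed 1.22-fold and 1.61-fold.

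Over the 8 genes, the median absolute log2 difference between mRNA replicates was 0.48 in Ded1, 0.57 in Dbp1 and 0.39 in 2xDbp1, against 0.12, 0.14 and 0.11 over all genes with enough mRNA. Without HSP30, which lacks that level, the medians were 0.21, 0.57 and 0.39. These medians include genes with few reads, whose counting error is large. In 2xDbp1 mRNA, HSP26 differed by 0.45 with a counting SE of 0.40, and RTC3 by 0.31 with 0.31. YRO2 in Dbp1 mRNA differed by 1.56 with a counting SE of 0.08. How much of each median is counting error was not tested. In footprints the median of the 8 was 0.19, 0.78 and 0.36, against 0.12, 0.13 and 0.10 over all genes, and it was the same without HSP26 and HSP30. In Dbp1, replicate 1 was higher than replicate 2 for 8 of 8 genes in mRNA and 8 of 8 in footprints, compared with 57.3% and 56.6% of all genes. Some of these were near ties: 1.01-fold for HSP30 and 1.03-fold for HSP26 in mRNA, and 1.07-fold for RTC3 in footprints. In Ded1, replicate 1 was higher for 5 and 4 of the 8, and in 2xDbp1 for 4 and 3. The other Msn2 and Msn4 targets examined showed no common direction between the Ded1 replicates. Over 28 such genes the median log2 difference was 0.0012 in mRNA, ranging from -0.69 to 0.44. None was as far apart as HSP12, but the lowest was past 0.49, the 95th percentile of absolute differences over all genes. In Dbp1 the same median was 0.17 in mRNA and 0.22 in footprints, with the first replicate higher.

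**Figure D3:**
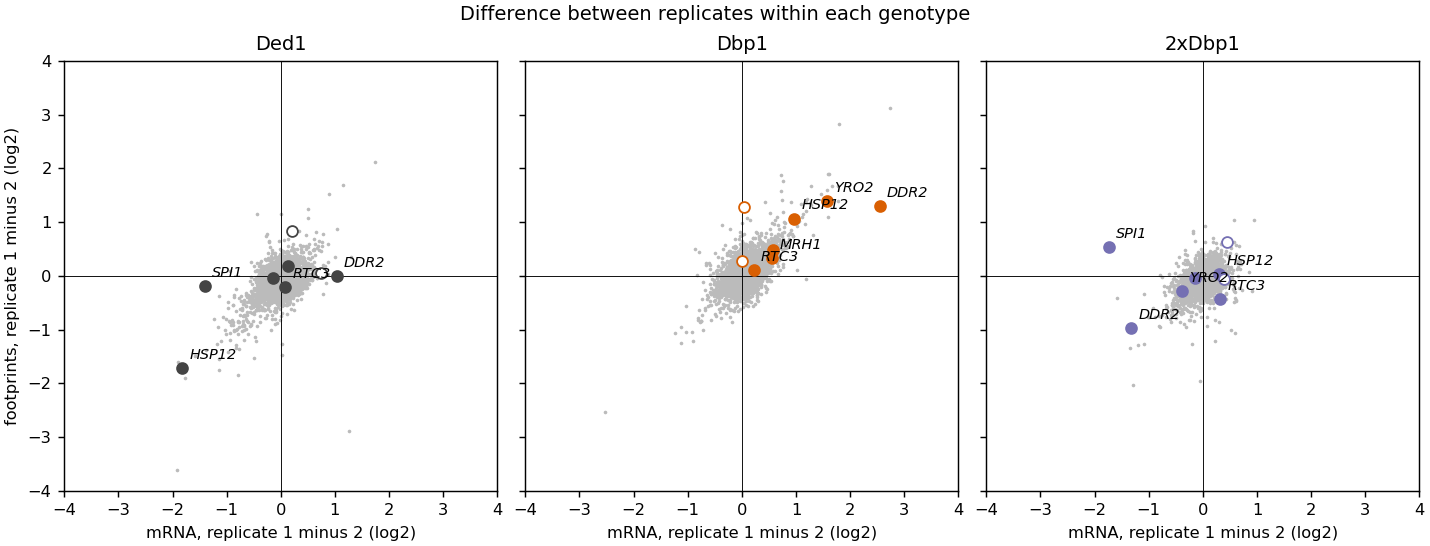
Log2 difference of RPKM plus 1 between replicate 1 and replicate 2, in mRNA (horizontal) and footprints (vertical), for each genotype; gray points are the genes that average 5 RPKM or more both in mRNA and in footprints, filled circles the genes described here and open circles HSP26 and HSP30, which are under that mean. HSP12 lies at -1.82 and -1.72 in Ded1, and all 8 genes lie at or above 0 on both axes in Dbp1, with HSP30 and HSP26 at 0.01 and 0.03 in mRNA.

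Footprints per mRNA, the ratio of footprint to mRNA RPKM in libraries of the same genotype and number, moved far less than either level for HSP12 and YRO2, but not for all of the genes. For HSP12 the ratio was 1.10 and 1.01 in Ded1, 0.80 and 0.74 in Dbp1, and 0.69 and 0.83 in 2xDbp1. It thus spanned 1.60-fold while the mRNA spanned 38.6-fold and the footprints 28.1-fold, and the Ded1 pairs were above the other 4. The ratio of YRO2 stayed between 0.98 and 1.14 over the 6 pairs, while its mRNA spanned 8.94-fold. For MRH1 it was 1.98 and 1.85 in Ded1, 1.51 and 1.76 in Dbp1, and 1.51 and 1.40 in 2xDbp1, again highest in Ded1. For RTC3 it was 2.10 and 2.59 in Ded1, 2.61 and 2.84 in Dbp1, and 1.38 and 2.35 in 2xDbp1, which overlapped Ded1. The ratio of MRH1 spanned 1.41-fold, close to the 1.59-fold of its footprints, and that of RTC3 2.06-fold against 4.59-fold in mRNA. In the low genes the ratio spanned as much as a level or more: 8.05-fold for SPI1 against 7.43-fold in mRNA, 4.11-fold for HSP26 against 1.43-fold in mRNA, and 2.47-fold for HSP30 against 1.38-fold in footprints. For a typical gene, the median span over the 6 pairs was 1.29-fold in the ratio and 1.29-fold in mRNA.

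**Figure D4:**
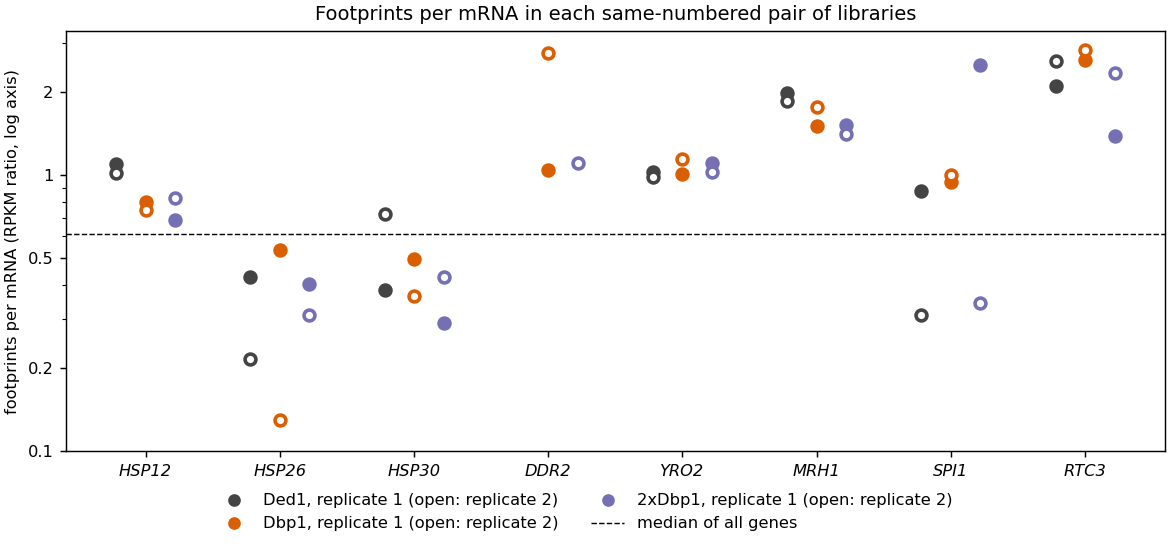
Footprints per mRNA (ratio of RPKM, log axis) of each gene in the same-numbered libraries of each genotype; filled circles are replicate 1, open circles replicate 2, and the dashed line is the median of all genes, 0.609. Pairs with too few mRNA reads for DDR2 are left out. YRO2 stays between 0.98 and 1.14, while SPI1, from few reads, runs from 0.31 to 2.50.

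Taken over all libraries, RTC3 carried 2.37 footprint RPKM per mRNA RPKM, more than 95.4% of genes, and MRH1 1.63, more than 89.6%. HSP12 was at 0.79, above 64.0% of genes. HSP30 at 0.41 and HSP26 at 0.34 were above 27.5% and 19.1%. Translational efficiency, the footprint difference less the mRNA difference, was tested in limma's interaction model, and none of the 6 genes passed. In Dbp1 against Ded1 the value was -0.45 for HSP12, 0.09 for YRO2, -0.23 for MRH1, 0.69 for SPI1 and 0.28 for RTC3. The fitted value of DDR2, -1.49 there and -1.88 in 2xDbp1 against Ded1, depends on the pseudocount, since Ded1 held 1 and 0 mRNA reads. In 2xDbp1 against Ded1 it was -0.47 for HSP12 (interval -2.52 to 1.57, adjusted p 1.00), -0.40 for MRH1 (-0.92 to 0.12, 0.98) and -0.32 for RTC3 (-0.81 to 0.17, 0.98). YRO2 was at 0.08 and SPI1 at 0.59. In 2xDbp1 against Dbp1, RTC3 was at -0.60 (-1.09 to -0.11, 0.999), the single gene of the 6 with an unadjusted p under 0.05 in the 3 comparisons; 172 of 4785 genes had one in this comparison. HSP12 was at -0.03, DDR2 at -0.39, YRO2 at -0.01, MRH1 at -0.16 and SPI1 at -0.11. Over all genes 0.0418%, 0.0418% and 0% were called in the 3 comparisons. This fit does not pair mRNA with footprints of the same number. With these pairs kept in the fit, the adjusted p of HSP12 in 2xDbp1 against Ded1 was 0.116, the lowest of a range up to 1.00 over its alternatives, and none of the 6 was called.

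Genes whose pattern was most like that of HSP12 were ranked by the Pearson correlation of log2(RPKM + 1) over the 12 libraries, each gene centered within its library type, among 4784 other genes. The 6 highest outside the 8 were PST1 (0.977), a wall protein, YBR085C-A (0.973), GCY1 (0.966), a glycerol dehydrogenase, FAA1 (0.964), a fatty acyl-CoA synthetase, QCR7 (0.963), a subunit of respiratory complex III, and FMP45 (0.961), a membrane protein of the Sur7 family. Among the 8 genes, RTC3 ranked 48th at 0.909, SPI1 was at 0.843, YRO2 at 0.837, MRH1 at 0.829 and DDR2 at 0.787. HSP26 and HSP30, whose footprints were under the minimum level, were not ranked. The paralogs YRO2 and MRH1 correlated at 0.939 with each other. These are descriptions of 12 libraries from 3 genotypes, and depth differed between the libraries. The correlation does not weigh the size of a change. Over the 6 mRNA libraries, QCR7 ran from 1787.5 to 2638 RPKM and FMP45 from 1.21 to 20.5, where HSP12 ran from 17.5 to 674.

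Other genes of the same pathways were read from lists chosen with earlier results of these data known. Of 28 general stress genes under Msn2 and Msn4 with enough mRNA, 14 rose and none fell in Dbp1 against Ded1. Their median was 0.90 against 0.04 for all genes. In footprints 18 of 27 rose, with a median of 1.04 against 0.0043. Over all genes tested, 1.52% were called in mRNA and 3.31% in footprints, the shares to set beside every list here. How many list genes passed the minimum level only through the Dbp1 libraries was not counted. The largest called in mRNA were DCS2 (1.99), a regulator of mRNA cap metabolism, GPH1 (1.93), glycogen phosphorylase, and PHM8 (1.48), a nucleotide phosphatase. Summed mRNA of the list was 1261 and 1272 RPKM in Ded1, 1957 and 1903 in Dbp1, and 1454 and 1498 in 2xDbp1. Without the first Ded1 library none of the list was called in mRNA and 5 in footprints; leaving out each library in turn gave 0 to 13 and 5 to 20. The summed mRNA of the list separated the genotypes with little difference between replicates. Single genes of the list ran from -0.28 to 0.77 on the log2 scale between the Dbp1 replicates in mRNA.

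Of 13 genes of the eisosome, a furrow of the plasma membrane, 1 rose in mRNA, FMP45 at 2.72, and it rose again among 11 in footprints at 3.38. FMP45 mRNA was 1.21 and 2.16 RPKM in Ded1, 20.5 and 13.0 in Dbp1, and 3.51 and 4.45 in 2xDbp1. It passed the minimum level in mRNA only through the Dbp1 libraries, so its mRNA value is a description. None of 6 genes of the proton pump Pma1 and its regulators was called in mRNA, and none of 7 in footprints. Of 6 Haa1-regulated genes, PHM8 rose in mRNA, and PHM8, YPC1 (0.74), a ceramidase, and YGP1 (2.32), a secreted glycoprotein, rose in footprints. Of 19 Hsf1-dependent chaperones, 2 rose in each library type, HSP42 (1.17 in mRNA) and HSP78 (0.85), and the median of the list was 0.08. None of the 14 stress regulators was called in either library type. Of the relatives of the 8 genes, HSP42, related to HSP26, was called in both library types, HOR7, the paralog of DDR2, in footprints at 0.95, and SED1, similar to SPI1, in neither. Without the first Ded1 library a single call was left among the genes of the eisosome, the pump, Haa1, the chaperones, the regulators and the relatives, in the eisosome list in footprints.

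In 2xDbp1 against Ded1 and against Dbp1, no gene of these lists was called by limma in either library type. Of all genes tested, at most 0.077% were called in these comparisons. Without either Dbp1 library, 7 general stress genes were called in footprints against Ded1 and 1 in mRNA. Against Ded1 the median of the general stress genes was 0.37 in mRNA and 0.53 in footprints, with 25 of 28 and 26 of 27 genes above 0. Against Dbp1 it was -0.45 and -0.51, with no gene above 0. The chaperones stood at -0.20 and -0.11 against Ded1.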

How the data were processed

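The authors deposited 1 table of normalized values for 12 libraries, without naming a unit. The deposited values were read as RPKM: in genes with few reads, each value times coding length minus 60 nt (R64 lengths) steps by a fixed amount in each library. By that step, 83.8% to 87.8% of the values worth 200 reads or fewer were whole within 0.02 reads. Depth and read numbers here are inferred that way; 7 of the 8 genes gave whole reads, and those of YRO2 are approximate. CASAVA, bcl2fastq 2.17 and Bowtie2 were used, per the submitters' processing notes. How reads were counted, on which build and annotation, was not given in the sources used here. Names came from the R64 RefSeq table, which matched 5637 of 6159 IDs.

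Log2(RPKM + 1) was fitted with limma 3.58.1 in R 4.3.3 (trended empirical Bayes, 3 genotypes sharing the spread), for genes with a mean of at least 5 RPKM. A fold change on this scale understates low genes. Translational efficiency was the interaction over all 12 libraries. Calls were Benjamini-Hochberg adjusted p under 0.05 over 5198, 4830 or 4785 genes. The fit was tested on simulated data with the same spread for every gene and changes placed only in genes above a set level. That test does not cover low genes or genes whose replicates lie far apart. Tables and plots used Python 3.11.15, pandas 2.3.3, numpy 2.4.6 and matplotlib 3.10.9.

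Deviations of mRNA and footprints with the same number correlated at 0.533 in Ded1, 0.657 in Dbp1 and 0.417 in 2xDbp1, so these libraries were treated as pairs for ratios. The 8 genes and all lists were chosen with earlier results of these data known. The 8 genes are named whatever their values; from each list, up to 3 called genes with the largest change are named, and the relatives always. Alternatives were other pseudocounts, minimum levels and scalings, each comparison fitted alone, the replicate block, and leaving out each library.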

Additional observations from a re-analysis of the deposited data

How the results depend on the processing

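Depth limits the low genes: DDR2 had 0 to 26 mRNA reads, SPI1 5 to 34, and intervals from reads cover counting error only. With 2 libraries a group, leaving out 1 leaves a lone library that is assumed to vary like the other groups. The 8 genes were tried under 7 other settings and 6 omissions of a library; of 702 values of single genes, 647 kept direction and call, 19 lost a call, 19 gained one and 17 reversed, all 17 with a library left out.

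For Dbp1 against Ded1, the number called in mRNA, 2 as reported, was 1 with the compared genotypes fitted alone and 0 to 5 with a library left out. In footprints, 4 as reported, it was 2 without a minimum level, 2 with the compared genotypes alone, and 1 to 6 with a library left out. For 2xDbp1 against Ded1, where none was called, mRNA gave 1 at a minimum mean of 20, 1 after rescaling, 2 with the compared genotypes alone and 0 to 2 with a library left out. Footprints gave 1 with the genotypes alone and 0 to 1 with a library left out. No setting called any of the genes in 2xDbp1 against Dbp1 or in translational efficiency.

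Across genotypes, deviations of same-numbered libraries correlated at 0.32 in mRNA and 0.35 in footprints for 2xDbp1 with Ded1. They correlated at 0.17 and 0.19 for Dbp1 with Ded1, and at -0.11 and -0.07 for 2xDbp1 with Dbp1. The fits reported above hold no replicate block. With the replicate block, RTC3 passed in mRNA in 2xDbp1 against Ded1, so that 1 gene was called (adjusted p 0.0189 in limma's test), and YRO2 passed in Dbp1 against Ded1. Over all genes, calls in Dbp1 against Ded1 numbered 79 in mRNA, 116 with the block and 2 to 204 over all settings, and 160 in footprints, 22 to 244 over all settings. The 2 was without the first Ded1 library. For 2xDbp1 against Ded1 the counts were 4 (3 to 27) and 3 (2 to 22), for 2xDbp1 against Dbp1 1 (1 to 6) and 0 (0 to 1), and for translational efficiency 2 (2 to 3), 2 (2 to 5) and 0 (0 to 1).

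With a pseudocount of 5, the median replicate difference of the 8 genes fell to 0.21 in Ded1 mRNA, 0.12 in Ded1 footprints, 0.45 in Dbp1 footprints, and, in translational efficiency, 0.23 in Ded1 and 0.18 in 2xDbp1. Larger pseudocounts shrink differences of low genes by construction.

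No value that reversed with a library left out had been called; the ranges over the 6 omissions follow. In mRNA, 2xDbp1 against Ded1 ran from -0.31 to 0.14 for HSP26 and -0.73 to 1.01 for SPI1, and 2xDbp1 against Dbp1 from -1.53 to 0.037 for YRO2, -0.37 to 0.19 for MRH1 and -0.12 to 0.34 for HSP26. In translational efficiency, YRO2 ran from -0.00019 to 0.18 in Dbp1 against Ded1. In 2xDbp1 against Ded1, SPI1 ran from -0.55 to 1.72 and RTC3 from -0.69 to 0.049. In 2xDbp1 against Dbp1, HSP12 ran from -0.16 to 0.10, DDR2 from -0.57 to 0.23, YRO2 from -0.10 to 0.082 and SPI1 from -1.25 to 1.03. The cause was not tested.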

Other observations

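Few genes parted the replicates of 1 genotype by more than 2-fold in both library types: 14 of 4785 in Ded1, 28 in Dbp1 and 4 in 2xDbp1. Of the 8 stress genes, HSP12 was among them in Ded1, and YRO2 and DDR2 in Dbp1. The genes named next were chosen after their values were seen, and no test was run on them.

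In Ded1, 12 of the 14 genes were higher in the second replicate, as HSP12 was. Among them were SNZ1 and SNO1, which act in vitamin B6 synthesis. SNZ1 mRNA was 310.9 and 1057 RPKM in replicates 1 and 2, and its footprints were 218 and 813. CIN5, a stress transcription factor, was at 8.75 and 24.3 RPKM in mRNA. NCE103, carbonic anhydrase, was at 573 and 1304 RPKM. ARG4 and LYS1, of arginine and lysine synthesis, stood at 478 and 982 RPKM and at 65.6 and 133 RPKM. PTR2, a peptide transporter, went the other way, with 53.3 and 15.2 RPKM. SNZ1 and SNO1 also parted the 2xDbp1 replicates, with SNZ1 mRNA at 349 and 804 RPKM, whereas HSP12 did not part them.

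In Dbp1, 24 of the 28 genes were higher in the first replicate, YRO2 and DDR2 among them. PTR2 mRNA was 34.4 and 4.31 RPKM, and ICL1, an enzyme of the glyoxylate cycle, was at 40.3 and 10.9 RPKM. PDH1, of propionate metabolism, stood at 255 and 73.7 RPKM, PHO84, a phosphate transporter, at 116 and 36.0 RPKM, and YGP1 at 201 and 58.1 RPKM. The 4 genes lower in the first replicate were CHA1 at 19.4 and 116 RPKM, SHM2 at 77.7 and 184 RPKM, GCV1 at 129 and 281 RPKM, and ADE17 at 47.6 and 97.8 RPKM. CHA1 and GCV1 parted the Ded1 replicates as well, at 45.4 and 98.6 RPKM and at 107 and 235 RPKM, again with the second replicate higher. What sets the replicates of a genotype apart is not given in the sources used here and was not tested.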
